A study of Mus musculus with 6 samples.

Results

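β-Catenin, the kinase TNIK and 8 further effectors of Wnt signaling were followed in LT/ST-HSCs that lacked the lymphotoxin-β receptor or carried it. The 10 genes, Ctnnb1, Tnik, Tcf7, Lef1, Tcf7l2, Axin1, Apc, Gsk3b, Lrp6 and Csnk1a1, were chosen by symbol from 26216 gene names, and a repeated symbol was represented by its entry with the highest mean. All 10 were found, and 8 of them lay in the upper 50% of names by mean value and were tested among 13108 genes. Tcf7 and Lef1 fell below that limit and are described by their values alone.

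RNA was sequenced from LT/ST-HSCs, that is, long- and short-term hematopoietic stem cells, which the study's methods describe as lineage-negative, Annexin V-negative bone marrow cells positive for Sca-1, c-Kit and CD150 and negative for CD48. LSKs from Ltbr-/- donors (CD45.2) and from Ly5.1 wild-type donors (CD45.1) had been transplanted together into Ly5.1/Ly5.2 recipients after lethal irradiation, and both kinds of cell were sorted from these mixed chimeras 6 weeks later. There were 3 Ltbr-/- and 3 Ly5.1 samples, pooled from 6 chimeras, so that p-values measure only the spread between these pools. Donors of Ltbr-/- replicates 1 and 2 were 13 and 10 weeks old and those of replicate 3 were 10 to 13 weeks old, whereas all Ly5.1 donors were 7 to 13 weeks old. Ltbr was deleted in the whole donor animal, and the receptor genotype, the CD45 allele and the donor strain went together and cannot be told apart. Cells of both genotypes shared irradiated recipients.

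In Wnt signaling, ligands bind Frizzled receptors and the co-receptors LRP5 and LRP6 at the cell surface. Without ligand, a destruction complex built on the scaffolds AXIN1 and APC holds β-catenin while casein kinase 1α (Csnk1a1) and then GSK3β phosphorylate it for degradation. With ligand, β-catenin accumulates, enters the nucleus and binds DNA through the factors TCF1 (Tcf7), LEF1 and TCF4 (Tcf7l2), where the kinase TNIK, a partner of TRAF2, can act with the complex. Much of this regulation concerns protein stability and location, which mRNA levels do not measure, and in blood stem cells the pathway is known for its part in self-renewal.

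Values are the deposited ones, which were judged from the values themselves to be a regularized log raised as a power of 2. Such a scale is already normalized between samples. It pulls the samples of a weakly expressed gene together, which makes its fold change too small. A log2 fold change is Ltbr-/- minus Ly5.1, and a gene was called at an adjusted p under 0.05 (limma with Benjamini-Hochberg adjustment over the 13108 genes) together with a fold of at least 1.5. Ltbr itself was at 24.2, 26.4 and 23.1 in the Ltbr-/- samples and at 564, 549 and 522 in the Ly5.1 samples, which fits the labels (log2 fold change −4.47). Correlations between samples were 0.997 to 0.998 within a genotype and 0.992 to 0.996 between genotypes. Ribosomal protein genes were mostly higher in Ltbr-/- cells, with 72 of 80 called and a median of 0.79, while the median of all tested genes was −0.01.

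Of the 8 tested effectors, 0 were called, against 2.78% of all tested genes (2.72% higher and 0.061% lower). Of the 8, 1, Tnik, passed the adjusted p alone, against 14.8% of all tested genes (10.6% higher and 4.18% lower). Tnik was lower in Ltbr-/- cells, at 75.0% of its Ly5.1 level. The log2 fold change was below 0 for 7 of the 8, against 53.6% of all tested genes, with a median of −0.10. In Ctnnb1, Tnik and Csnk1a1, 3 of the 8, every Ltbr-/- sample lay below every Ly5.1 sample, against 13.5% of all tested genes, and in 0 of the 8 did every Ltbr-/- sample lie above, against 17% (30.4% in either direction). In a comparison of 3 with 3 samples the exact two-sided permutation test of a single gene cannot give a p below 0.1.

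**Figure D1:**
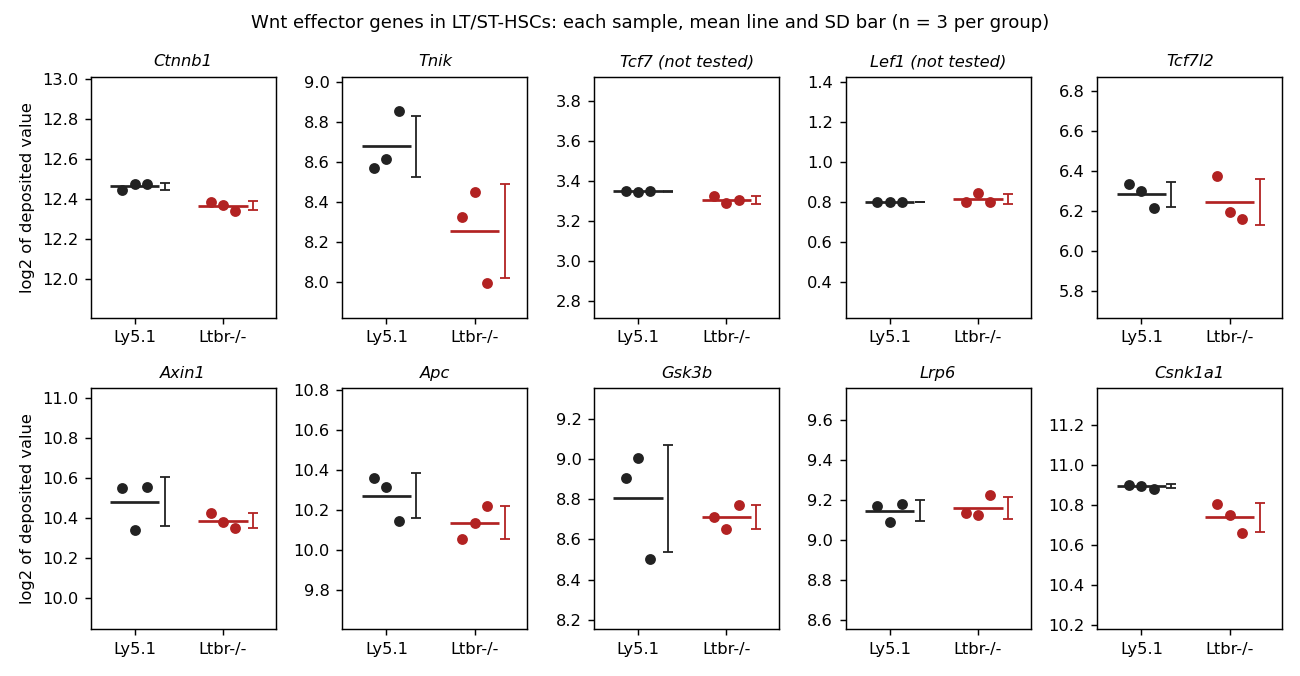
Log2 of the deposited value of the 10 Wnt effector genes in each Ly5.1 (black) and Ltbr-/- (red) sample, with the group mean as a line and the SD as a bar (n = 3 per group); every panel spans the same height on the log2 axis. The Ltbr-/- samples sit below all Ly5.1 samples in Tnik, Csnk1a1 and, by a small distance, Ctnnb1 and the untested Tcf7, and the groups overlap in Tcf7l2, Axin1, Apc, Gsk3b and Lrp6.

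Among the effectors themselves the levels differed far more than between genotypes. Divided by the length of the longest protein-coding transcript, the Ly5.1 level was highest for Ctnnb1, with 1562 ± 18.9 per kb (SD, n = 3). Its unscaled mean over all 6 samples lay at the 97.8th percentile of tested genes. The kinase gene Csnk1a1 followed with 466 ± 3.22 per kb and the scaffold gene Axin1 with 380 ± 31.3 per kb. Apc came next with 96.6 ± 7.50 per kb, Lrp6 with 60.5 ± 2.13 per kb and Gsk3b with 54.5 ± 9.57 per kb, and the ranges of Lrp6 and Gsk3b overlapped. Tnik stood at 33.5 ± 3.64 per kb, and the DNA-binding factors were lowest. The sample ranges of all other neighbours in this order did not overlap in Ly5.1 cells. The isoforms used in these cells are not known from the files, and a shorter isoform would raise a level per kb.

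**Figure D2:**
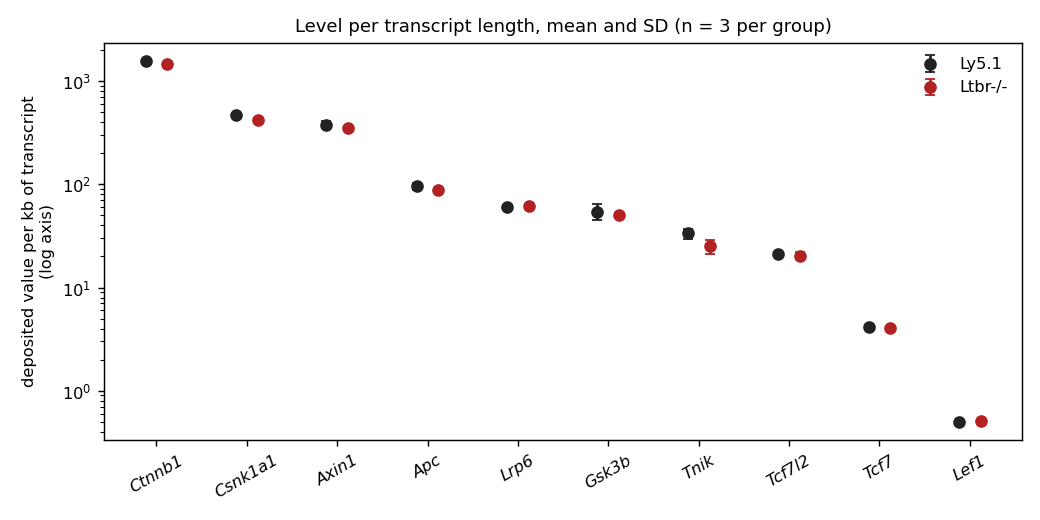
Deposited value per kb of the longest protein-coding transcript (log axis) for the 10 effectors in Ly5.1 (black) and Ltbr-/- cells (red), as the mean with the SD (n = 3 per group). The order runs from Ctnnb1, at 1562 per kb in Ly5.1 cells, to Lef1, at 0.50, and the genotypes lie close together at each gene.

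β-Catenin, encoded by Ctnnb1 (chr9:120933400-120960507, GRCm38), is both the transcriptional effector of the pathway and a component of cell junctions. Its value was 5360, 5305 and 5192 in the Ltbr-/- samples and 5579, 5693 and 5702 in the Ly5.1 samples. All Ltbr-/- samples were thus lower and the groups did not overlap, but the distance was small, with the Ltbr-/- mean at 93.4% of the Ly5.1 mean. The difference on the log2 scale was −0.10 (95% interval −0.24 to 0.04) with an adjusted p of 0.381 by limma, and the exact two-sided permutation p was 0.1. On the deposited scale the interval leaves out a reduction of 1.5-fold in these pools, but it does not cover the choice of scaling. After quantile normalization the log2 fold change was −0.27 with an adjusted p of 0.00247 by limma, still short of a fold of 1.5. Relative to the ribosomal protein genes it was −0.97 (adjusted p 5.49e-25 by limma), and Ctnnb1 was called, as were all 8 tested effectors. That reference shifted the median of all tested genes by −0.88, and 12010 of the 13108 tested genes were called under it. The adjusted p and the call of Ctnnb1 thus depended on the scaling.

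The 3 genes whose log2 values followed Ctnnb1 most closely over the 6 samples were Fbf1 (Pearson r 0.998), Ccdc6 (0.994) and Marf1 (0.993). With 6 samples in 2 groups such values are common, and 97 of the other tested genes exceeded 0.95. They are given as a description, and all samples share the genotype split.

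The DNA-binding partners of β-catenin were weakly expressed. Tcf7, best known from T cells and early lymphoid progenitors, was at 10.0, 9.78 and 9.90 in the Ltbr-/- samples and at 10.2 in each of the 3 Ly5.1 samples. Lef1, its close relative in lymphoid cells, was at 1.74, 1.79 and 1.74 in the Ltbr-/- samples and at 1.74 in all Ly5.1 samples. At such levels a regularized log leaves almost no room for a difference, and neither gene was tested. With no filter on low values the log2 fold change was −0.04 for Tcf7 (adjusted p 0.172 by limma) and 0.01 for Lef1 (adjusted p 0.837 by limma). Of the 10 T cell markers 8 fell below the limit for testing as well, with Cd3e at 0.979 to 0.996 and Cd8a at 0.749 to 0.759. The other two, Lck and Cd3g, were tested and did not pass, and Lck, at 184 to 219, made up most of the summed value over the 10 markers, which was 251 to 261 in Ltbr-/- and 247 to 281 in Ly5.1 cells.

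Tcf7l2, which encodes TCF4, was the factor with the highest level per kb among the 3 that were chosen, with 21.0 ± 0.90 per kb in Ly5.1 cells against 4.12 for Tcf7 and 0.50 for Lef1. Its value was 82.9, 73.3 and 71.5 in the Ltbr-/- samples and 80.7, 78.7 and 74.2 in the Ly5.1 samples. The groups overlapped, and the highest sample of all was Ltbr-/- replicate 1. Between genotypes the log2 fold change was −0.04 (95% interval −0.19 to 0.11) with an adjusted p of 0.784 by limma. Tcf7l1, the fourth gene of the family and mostly known as a repressor, stood at 17.7 ± 0.06 per kb in Ly5.1 cells, below every Ly5.1 sample of Tcf7l2, and had a log2 fold change of 0.04 (95% interval −0.09 to 0.17).

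These 4 genes encode one DNA-binding domain, the HMG box, and a single read of 76 bases could in principle be placed on the wrong member. The stretch of 76 coding bases in which the relatives are together most like Tcf7l2 is shown for that reason. Taken singly, the most similar window held 66 identical bases for Tcf7l1, 66 for Tcf7 and 64 for Lef1. It runs over exons 10 and 11 of 14 of Tcf7l2 (chr19:55919556-55923908, plus strand, GRCm38, intron between them included), exons 10 and 11 of 12 of Tcf7l1 (chr6:72630019-72631074, minus strand), exons 8 and 9 of 10 of Tcf7 (chr11:52256294-52256802, minus strand) and exons 9 and 10 of 12 of Lef1 (chr3:131200340-131204268, plus strand), in the longest coding transcript of GENCODE M21. Sequences are 5′ to 3′ on the coding strand, and capitals mark bases that differ from Tcf7l2.
Tcf7l2: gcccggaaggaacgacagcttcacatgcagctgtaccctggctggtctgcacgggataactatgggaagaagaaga
Tcf7l1: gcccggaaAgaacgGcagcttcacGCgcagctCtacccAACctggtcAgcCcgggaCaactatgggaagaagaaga
Tcf7: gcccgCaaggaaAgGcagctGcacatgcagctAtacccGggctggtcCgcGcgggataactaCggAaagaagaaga
Lef1: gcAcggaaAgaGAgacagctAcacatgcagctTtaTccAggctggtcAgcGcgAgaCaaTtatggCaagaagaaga
In this window Tcf7l1 differed from Tcf7l2 at 11 of 76 bases, Tcf7 at 10 and Lef1 at 14. Of the windows of 76 bases in all transcripts of Tcf7, Lef1 and Tcf7l2, 0 were shared exactly with another gene.

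Tnik (chr3:28261901-28670585, GRCm38) encodes a serine/threonine kinase of the germinal center kinase family that binds TRAF2 and NCK and, in the nucleus, works with β-catenin and TCF4. Its value was 321, 349 and 255 in the Ltbr-/- samples and 379, 392 and 462 in the Ly5.1 samples. All Ltbr-/- samples were lower than all Ly5.1 samples, with Ltbr-/- replicate 3 the lowest and Ly5.1 replicate 3 the highest, and the gap between the nearest samples was narrower than the spread within either group. The group means were 308 ± 48.4 and 411 ± 44.7 (SD, n = 3 each). Tnik had a log2 fold change of −0.42 (95% interval −0.64 to −0.21), an adjusted p of 0.00423 by limma and an exact two-sided permutation p of 0.1. The size of this difference lay below the fold of 1.5 that a call required.

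The adjusted p of Tnik moved with the choice of model, filter and samples. Without Ltbr-/- replicate 3 the log2 fold change was −0.29 with an adjusted p of 0.0995 by limma, and at the same log2 fold change of −0.42 it was 0.251 with a linear model for each gene alone and 0.308 by limma with no filter on low values. Corrected by loess for length and GC content of the transcripts, the value was −0.31 with an adjusted p of 0.0411 by limma. Granulocyte and macrophage markers moved the same way, with 7 of 8 lower at an adjusted p under 0.05 by limma, against 4.18% of all tested genes, and a summed value of 35963 to 36510 in Ltbr-/- and of 46337 to 50443 in Ly5.1 samples, and none of the 8 was at 0. Their part in the lower Tnik was not tested. The 3 genes most like Tnik over the 6 samples were Lcn2 (Pearson r 0.999), Gfm2 (0.992) and Mmp25 (0.983). Lcn2 and Mmp25 encode proteins of neutrophil granules, whereas Gfm2 does not. Their log2 fold changes were −0.23 for Lcn2, −0.19 for Gfm2 and −0.05 for Mmp25. None of the 3 passed (adjusted p 0.0577, 0.162 and 0.340 by limma). Here too 45 of the other tested genes exceeded 0.95, all samples share the genotype split, and the likeness is only a description.

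TNIK has close relatives in MAP4K4 and MINK1, which share its kinase domain, and reads from one could in principle be counted for another. The 76 coding bases in which both relatives are together most like Tnik are shown for that reason. They span exons 3 and 4 of 31 in Tnik (chr3:28493970-28505774, plus strand, GRCm38, with the intron between them), exons 3 and 4 of 31 in Map4k4 (chr1:39962181-39973948, plus strand) and exons 3 and 4 of 33 in Mink1 (chr11:70598845-70599001, plus strand), and capitals mark bases that differ from Tnik.
Tnik: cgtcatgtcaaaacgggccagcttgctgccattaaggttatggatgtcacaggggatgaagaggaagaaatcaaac
Map4k4: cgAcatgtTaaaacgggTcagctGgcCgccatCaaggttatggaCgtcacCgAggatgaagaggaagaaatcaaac
Mink1: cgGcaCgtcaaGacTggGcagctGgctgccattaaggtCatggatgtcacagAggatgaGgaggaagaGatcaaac
Map4k4 differed from Tnik at 9 and Mink1 at 10 of the 76 bases, and in its own most similar window Map4k4 had 67 and Mink1 68 identical bases. Of the 19487 distinct windows in Tnik transcripts, 0 occurred in another gene.

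Map4k4 was at 1694, 1700 and 1503 in the Ltbr-/- samples and at 1958, 1900 and 1999 in the Ly5.1 samples. The groups did not overlap, the log2 fold change was −0.26 (95% interval −0.43 to −0.09) and the adjusted p was 0.0293 by limma. Mink1 was at 2607, 2761 and 2600 in the Ltbr-/- samples and at 3194, 2854 and 2876 in the Ly5.1 samples, again without overlap, with a log2 fold change of −0.16 (95% interval −0.32 to −0.0032) and an adjusted p of 0.175 by limma. Per kb, Mink1 and Map4k4 stood at 596 ± 38.1 and 338 ± 8.59 in Ly5.1 cells, far above the 33.5 ± 3.64 of Tnik, so that Tnik was the least abundant of the 3 kinases.

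Upstream of TNIK lie the adaptor TRAF2 and the receptor CD27, a member of the TNF receptor family as is the lymphotoxin-β receptor. Cd27 was at 689, 881 and 713 in the Ltbr-/- samples and at 1002, 968 and 1028 in the Ly5.1 samples. It was lower in all Ltbr-/- samples, with a log2 fold change of −0.40 (95% interval −0.59 to −0.21) and an adjusted p of 0.00223 by limma. The ligand gene Cd70 was listed at 1 in all samples. Traf2 overlapped between the groups, with a log2 fold change of −0.08 (95% interval −0.27 to 0.11) and an adjusted p of 0.623 by limma.

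Cd27 is a neighbour of Ltbr on chromosome 6, with 69.4 kb between the genes. Of the 43 tested genes within 1 Mb of Ltbr, 11.6% had an adjusted p under 0.05 by limma, 4 of them higher and 1, Cd27, lower. Of the 156 within 10 Mb it was 14.7%, with 18 higher and 5 lower. Among all tested genes it was 14.8%, with 10.6% higher and 4.18% lower. Lrp6 lies on the same chromosome, 9.13 Mb away. Of the windows of 76 bases in Cd27, 2.19% were shared with another gene, the microRNA gene Mir8113. The part of the deleted locus in the value of Cd27 was not tested.

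**Figure D3:**
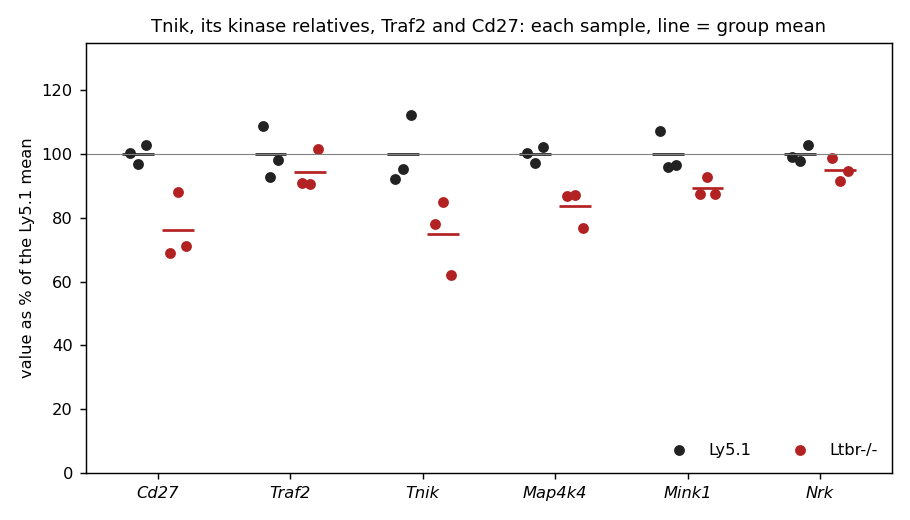
Values of Cd27, Traf2, Tnik and the Tnik relatives Map4k4, Mink1 and Nrk in each Ly5.1 (black) and Ltbr-/- (red) sample, as per cent of the Ly5.1 mean of that gene, with the group mean as a line. Tnik and Cd27 have the lowest Ltbr-/- means, at 75.0% and 76.1%, and the groups overlap in Traf2.

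The destruction complex showed no effector past the threshold. Axin1, a scaffold of the complex, was at 1376, 1336 and 1309 in the Ltbr-/- samples and at 1502, 1298 and 1503 in the Ly5.1 samples. Ly5.1 replicate 2 was the lowest of all 6 and the groups overlapped. The log2 fold change was −0.09 (95% interval −0.27 to 0.08) with an adjusted p of 0.523 by limma. Axin2, its homolog and a commonly used target of β-catenin, was far weaker, with 3.74 ± 0.08 per kb in Ly5.1 cells against 380 for Axin1. Its log2 fold change was 0.00 (95% interval −0.07 to 0.07). The level of Axin2 lay at percentile 1.02 of tested genes, where a regularized log understates differences. The narrow interval therefore does not show that Axin2 was unchanged.

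Apc, the second scaffold, was at 1062, 1124 and 1190 in the Ltbr-/- samples and at 1313, 1272 and 1130 in the Ly5.1 samples. Ly5.1 replicate 3 lay among the Ltbr-/- samples, so that the groups overlapped by 1 sample. For Apc the log2 fold change was −0.14 (95% interval −0.32 to 0.04) with an adjusted p of 0.335 by limma.

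Csnk1a1, whose product primes β-catenin for GSK3β, was at 1786, 1724 and 1620 in the Ltbr-/- samples and at 1913, 1903 and 1887 in the Ly5.1 samples. The Ly5.1 samples lay close together and above all Ltbr-/- samples, of which replicate 3 was the lowest. Csnk1a1 had a log2 fold change of −0.15 (95% interval −0.32 to 0.01) with an adjusted p of 0.222 by limma and an exact two-sided permutation p of 0.1. The groups were separated in this gene, yet the difference did not pass the threshold across all genes.

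Gsk3b, the kinase that marks β-catenin for degradation, was at 419, 403 and 437 in the Ltbr-/- samples and at 480, 514 and 363 in the Ly5.1 samples. The Ly5.1 samples spread on both sides of the Ltbr-/- samples, with the lowest value of all in Ly5.1 replicate 3. Gsk3b had a log2 fold change of −0.09 (95% interval −0.31 to 0.12) with an adjusted p of 0.622 by limma, and without Ly5.1 replicate 2 it was 0.01 and without Ly5.1 replicate 3 it was −0.24. Its paralog Gsk3a stood at 398 ± 32.0 per kb in Ly5.1 cells against 54.5 for Gsk3b and had a log2 fold change of −0.04 (95% interval −0.22 to 0.15).

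Lrp6, the co-receptor, was at 562, 558 and 599 in the Ltbr-/- samples and at 577, 544 and 580 in the Ly5.1 samples. It was the only tested effector with a log2 fold change above 0, at 0.01 (95% interval −0.17 to 0.20), with an adjusted p of 0.943 by limma and overlapping groups. The other co-receptor gene, Lrp5, was more abundant per kb, with 348 ± 8.45 against 60.5 in Ly5.1 cells, and its log2 fold change was −0.03 (95% interval −0.20 to 0.14). Of the windows of 76 bases in Lrp6, 0.138% were shared with another gene.

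**Figure D4:**
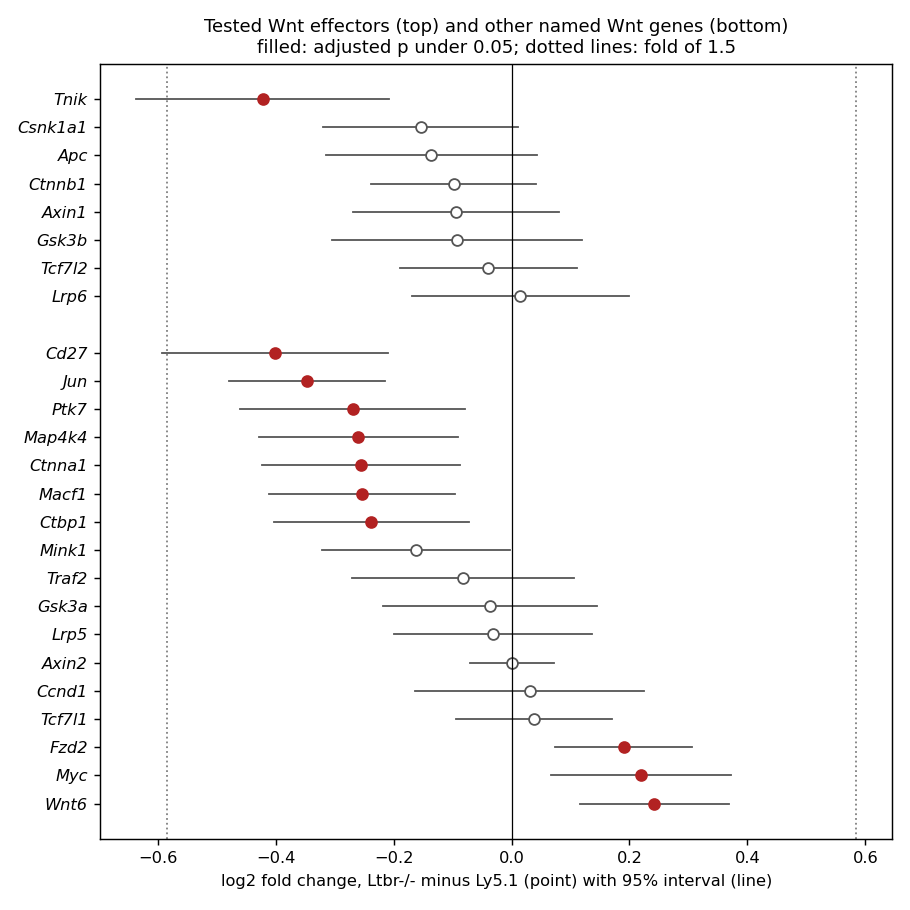
Log2 fold change between Ltbr-/- and Ly5.1 cells (point) with its 95% interval (line) for the 8 tested effectors (top) and other named Wnt genes (bottom); filled points have an adjusted p under 0.05 by limma and the dotted lines mark a fold of 1.5. Tnik, at −0.42, is the only filled effector, and no point passes a dotted line.

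The rest of the pathway was described with lists that hold 141 further genes, of which 82 were tested. None of the 82 was called, against 2.78% of all tested genes, and 10 had an adjusted p under 0.05 by limma, against 14.8%. Of these 10, Wnt6, Fzd2 and Myc were higher and Jun, Cd27, Ptk7, Map4k4, Ctnna1, Macf1 and Ctbp1 were lower in Ltbr-/- cells. The log2 fold change was below 0 in 55 of the 82, against 53.6% of all tested genes, with a median of −0.04.

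Most ligand and inhibitor genes were listed at 1 in all samples, a value that did not vary. Of 21 genes for Wnt ligands and their secretion, 15 were listed so and 3 were tested, and of 15 secreted inhibitors, 9 were listed at 1 and 1 was tested. Wnt6 rose, from 51.4, 52.5 and 52.3 in Ly5.1 to 61.1, 60.5 and 63.2 in Ltbr-/- samples, with no overlap (log2 fold change 0.24, adjusted p 0.00555 by limma). Of 24 receptor and R-spondin system genes 13 were tested. Fzd2, a Frizzled receptor, rose from 41.2, 39.7 and 42.1 to 48.2, 44.6 and 47.6 (log2 fold change 0.19, adjusted p 0.0194 by limma). The levels of Wnt6 and Fzd2 lay at the 15.6th and 12.6th percentiles of tested genes, where a regularized log understates differences. Ptk7, a pseudokinase co-receptor, fell from 390, 425 and 423 to 327, 328 and 373 (log2 fold change −0.27, adjusted p 0.0482 by limma), and with the replicate number as a block its adjusted p was 0.0524 by limma.

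Of 25 further genes of the destruction complex and cytoplasm 22 were tested, and 16 of them had a log2 fold change below 0, against 53.6% of all tested genes. Macf1, a cytoskeletal linker that takes part in moving the AXIN complex, was the one past the threshold, with 7431, 6327 and 6123 in the Ltbr-/- and 8765, 7853 and 7082 in the Ly5.1 samples, which overlapped (log2 fold change −0.25, adjusted p 0.0221 by limma). The loess correction brought Macf1, with a transcript of 23495 bases, to −0.12 and an adjusted p of 0.207 by limma. Of 24 tested nuclear cofactors and antagonists 19 were below 0, against 53.6% of all tested genes, with a median of −0.11 against −0.01. Of the 24, 6 were lower without overlap, against 13.5% of all tested genes. Ctbp1, a corepressor, fell from 2813, 2830 and 3374 to 2510, 2609 and 2500 (log2 fold change −0.24, adjusted p 0.0431 by limma).

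In cell junctions, where β-catenin links cadherins to α-catenin, 5 of 10 listed genes were tested. Ctnna1, which encodes α-catenin, fell from 1937, 1938 and 1958 in Ly5.1 to 1761, 1563 and 1570 in Ltbr-/- samples, with no overlap (log2 fold change −0.26, adjusted p 0.0313 by limma).

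Targets of the pathway did not move in 1 direction. Of 23 listed targets 10 were tested, with 3 below 0, against 53.6% of all tested genes, and a median of 0.02. At an adjusted p under 0.05 by limma 1 of the 10 was higher, against 10.6% of all tested genes, and 1 was lower, against 4.18%. Jun, an AP-1 subunit that also responds to many stress signals, fell from 10763, 9648 and 10272 to 7875, 8167 and 8060, with no overlap (log2 fold change −0.35, adjusted p 0.000133 by limma). Myc, a growth regulator with many other inputs, rose from 3373, 3350 and 3731 to 4029, 3937 and 4191, also without overlap (log2 fold change 0.22, adjusted p 0.0443 by limma). Ccnd1, which encodes cyclin D1, had a log2 fold change of 0.03 (95% interval −0.16 to 0.23) with overlapping groups.

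**Figure D5:**
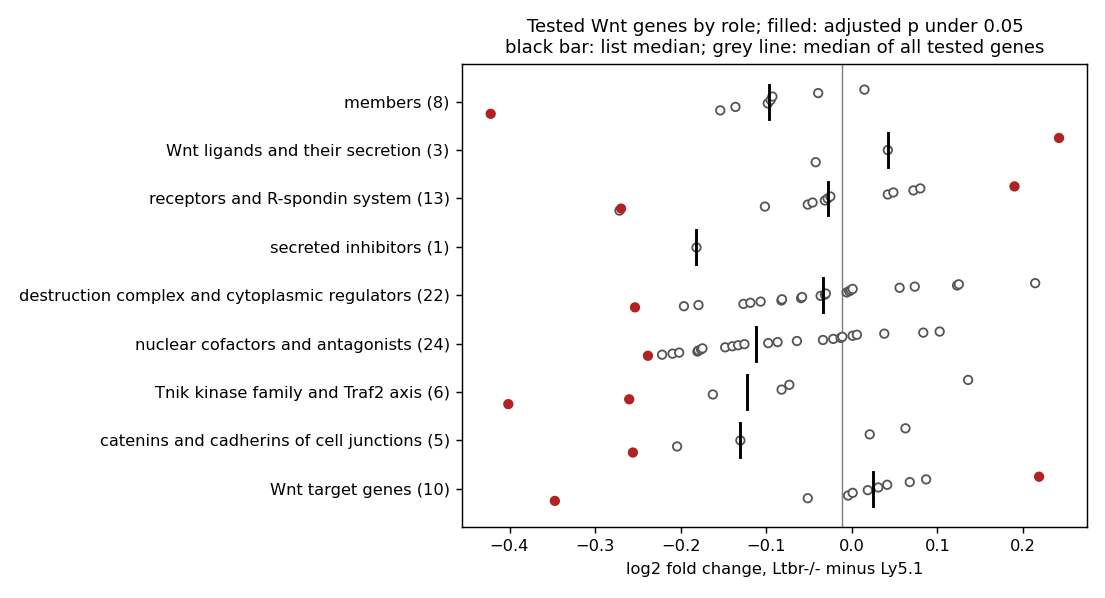
Log2 fold change of each tested Wnt gene by role, 1 point per gene, with the number tested in brackets; filled points have an adjusted p under 0.05 by limma, black bars are list medians and the grey line is the median of all tested genes, −0.01. Medians range from −0.18 for the single tested secreted inhibitor to 0.04 for ligands, and the filled points lie on both sides of 0.

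Of the named genes, Macf1, Ctnna1, Ctbp1, Map4k4, Myc, Ptk7 and Fzd2 lost an adjusted p under 0.05 by limma when 1 sample was left out, each in more than 1 of the 6 ways, whereas Jun, Cd27 and Wnt6 kept it in all 6. Cd27 lost it with no filter on low values (adjusted p 0.177 by limma) and with a linear model per gene (adjusted p 0.164), both at −0.40. Directions depended on the reference: relative to the ribosomal protein genes, which shifted the median of all tested genes by −0.88, all 8 effectors and also Wnt6, Fzd2 and Myc were lower in Ltbr-/- cells, with Tnik at −1.30 and Lrp6 at −0.86.

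Markers of the sorted cells were present in both genotypes. All 10 HSC markers were tested, and all 10 had a log2 fold change below 0, against 53.6% of all tested genes. Their median was −0.16, and 5 of 10 were lower without overlap, against 13.5% of all tested genes. Of the 10, 2 were lower at an adjusted p under 0.05 by limma, against 4.18%. Ly6a, which encodes the sort marker Sca-1, was at 541 to 582 in Ltbr-/- and 726 to 767 in Ly5.1 samples (log2 fold change −0.39, adjusted p 0.0016 by limma). Kit, which encodes the sort marker c-Kit, did not pass and was at 5179 to 5551 in Ltbr-/- and 5849 to 6103 in Ly5.1 samples. Slamf1, which encodes CD150, was at 260 to 266 in Ltbr-/- and 271 to 329 in Ly5.1 samples (adjusted p 0.220 by limma). Cd48 was at 22.6 to 28.9 in Ltbr-/- and 20.1 to 28.7 in Ly5.1 samples (adjusted p 0.943 by limma). Of 4 markers of multipotent progenitors 2 were lower by the same rule, and of 8 erythroid and megakaryocyte markers 1 was higher and 1 lower. Of 8 granulocyte and macrophage markers 7 were lower. Of 6 mast cell and basophil markers 2 were higher and 1 was lower. Of 4 tested B cell markers 1 was higher and 2 were lower, and of 5 tested stromal and endothelial markers 0 passed. Among all tested genes 10.6% were higher and 4.18% lower by that rule. With the fold of 1.5 as well, 3 of the 4 B cell markers and 1 of the 6 mast cell and basophil markers were called, against 2.78%. These were Igkc (log2 fold change −1.21), Ighm (−1.04), Cd79a (0.62) and Cma1 (1.32). In bulk RNA, fewer cells of a type and less RNA per cell cannot be told apart, and the part of these markers in the values of the effectors was not tested.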

How the data were processed

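RNA from sorted LT/ST-HSCs (20 ng per library, TruSeq Stranded mRNA) was sequenced as single reads of 76 bases. Per their methods, the authors used SeqMan NGen for assembly and ArrayStar for quantification, and the submitters' processing notes name GRCm38, mm10 and DESeq2. The deposited signal is never negative and was taken from the values to be a regularized log raised as a power of 2, with size factors and shrinkage included. The study's methods give the reads per sample as an average with its spread, not for each sample. The files give no counts, so the depth of each single sample is not known. Precision rests on the spread between 3 samples per group.

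Of 26595 entries, 379 repeated ones were dropped (the highest mean was kept), which left 26216 names. The upper 50% by mean (13108) were fitted on log2 values with genotype as the only term in limma 3.58.1 (R 4.3.3; lmFit and eBayes with trend). Benjamini-Hochberg adjustment was over all tested genes. No pseudocount was used. For single genes an exact permutation test (two-sided) was added. Per-kb levels used the longest transcript of GENCODE M21 and gene positions a RefSeq table for GRCm38.p6. Shared reads were estimated from windows of 76 transcript bases.

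The members and gene lists were chosen with earlier results of these data known. Named genes were the members, Ltbr, all genes of the Wnt lists with an adjusted p under 0.05, and 10 genes fixed by name (Axin2, Gsk3a, Mink1, Map4k4, Traf2, Cd27, Lrp5, Tcf7l1, Myc and Ccnd1); for Ctnnb1 and Tnik also the 3 genes most like them. Cd3e, Cd8a, Cd70, Lck, Cd3g, Nrk, Kit, Ly6a, Igkc, Ighm, Cd79a and Cma1 were named once their values had been seen. Tested alternatives were other filters, the replicate block, scalings, pseudocounts, variance models and fold thresholds, averaging repeated symbols, a loess correction for length and GC content, and leaving out each sample.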

Additional observations from a re-analysis of the deposited data

How the results depend on the processing

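For the effectors, 0 called genes stayed 0 and the 1 with an adjusted p under 0.05 stayed 1 under most alternatives. Without a filter on low values the numbers with an adjusted p under 0.05 by limma were 675 of all genes, 0 effectors and 2 further Wnt genes. With a linear model per gene they were 573, 0 and 2, and with eBayes without trend they were 1696, 1 and 6. With quantile normalization they were 2160, 2 (Ctnnb1 and Tnik) and 11. That setting called 1 further Wnt gene, against 289 of all tested genes, and turned Axin2 to −0.00431. Centring on ribosomal protein genes called 12010 genes, with 12853 past the adjusted p, 8 of 8 effectors and 82 of 82 further Wnt genes past both, and reversed Lrp6 (−0.86), Wnt6 (−0.63), Fzd2 (−0.69), Myc (−0.66), Axin2 (−0.87), Tcf7l1 (−0.84) and Ccnd1 (−0.84). A fold of at least 2 left 42 called genes. The loess correction turned Lrp5 to 0.0262, with or without the block.

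Correlations of same-numbered deviations were 0.03, −0.01 and 0.09, and those of different-numbered ones ran from −0.07 to 0.05. With 3 pools per genotype these values cannot settle whether the samples were paired. Whether same-numbered samples came from the same chimeras is not given in the sources used here. The replicate block gave 0 called effectors, against 364 of all tested genes. Of the effectors 1 had an adjusted p under 0.05 (Tnik, adjusted p 0.0135 by limma), as did 9 further Wnt genes, Ptk7 being lost. Among all tested genes 1936 did. With the block and the loess correction together 0 effectors passed, Tnik having an adjusted p of 0.0656 by limma.

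Leaving out 1 sample gave 342 to 407 called genes, 1253 to 1999 with an adjusted p under 0.05 by limma, 0 called effectors, 0 to 1 effectors past the adjusted p and 4 to 9 further Wnt genes. The 0 and the 4 came without Ltbr-/- replicate 3, which also gave the 1253. Without Ltbr-/- replicate 2 or Ly5.1 replicate 2 there were 5, and without Ly5.1 replicate 1 there were 6. Ranges that crossed 0 were −0.104 to 0.00213 for Tcf7l2, −0.244 to 0.0071 for Gsk3b, −0.0171 to 0.0333 for Lrp6, −0.0223 to 0.0326 for Axin2, −0.100 to 0.0154 for Gsk3a, −0.0889 to 0.00699 for Lrp5, −0.0152 to 0.102 for Tcf7l1 and −0.0423 to 0.104 for Ccnd1. The cause of these changes was not tested. Depth is reported only as an average over the samples, and precision is limited by the 3 pools per genotype.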
